A study of Mus musculus with 6 samples.

Results

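The genes described here encode the constitutive proteasome, its activators and its assembly factors, in pancreatic islets of mice on 2 diets. They are the 45 gene names that begin with Psma, Psmb, Psmc, Psmd, Psme, Psmf or Psmg and end in a number, of 48321 names in the deposited table. The 3 immunoproteasome subunits Psmb8, Psmb9 and Psmb10 were left out of the set and are given for comparison. By known role, the set held 7 subunits of the alpha ring, 4 structural and 3 catalytic beta subunits, 6 ATPases, 3 other subunits of the base and 8 of the lid of the 19S particle, 3 chaperones of the base, 4 of the core, 4 activators with 1 inhibitor, and 2 core subunits of other tissues.

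The islets came from wild-type C57BL6 mice, per the labels, and total RNA was extracted with Trizol and sequenced. The controls were fed normal chow, and the others received, from 3 months of age and for 4 months, a diet in which fat supplied 60% of the calories. Neither the age nor the length of feeding is labelled for the controls, and the treatment field names the high-fat feeding for them too. Separate animals are not stated, so the p-values below reflect the spread of these samples only, which may be technical. Each diet had 3 samples, but the column of chow replicate 2 was the mean of chow replicates 1 and 3, so 2 chow and 3 high-fat libraries were compared.

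The proteasome breaks down proteins that carry ubiquitin chains. Its barrel, the 20S core, has outer rings of alpha subunits that form a gate and inner rings of beta subunits, of which Psmb5, Psmb6 and Psmb7 carry the cutting sites. The 19S particle caps the barrel, removes the ubiquitin with its lid and unfolds the protein with the ATPases of its base. In cells exposed to interferon, Psmb8, Psmb9 and Psmb10 take the places of Psmb5, Psmb6 and Psmb7, and Psme1 and Psme2 form a cap that can take the place of the 19S particle. Beta cells, which make large amounts of proinsulin, depend on the proteasome for the removal of misfolded secretory protein from the endoplasmic reticulum.

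Values are CPM, reads scaled to the size of the library, and the implied totals ran from 18.8 to 35.0 M reads. The summed gene CPM came to 841705 and 674482 on chow and to 963615, 832416 and 879301 after high-fat feeding. The share of reads in the listed genes thus differed between libraries. The islet hormones were present in every library (Ins2 from 28777 to 45461 CPM). The 18 acinar markers, genes of digestive enzymes of the exocrine pancreas, took 25.3% and 9.69% of the summed gene CPM on chow, and 10.9%, 1.49% and 4.38% after high-fat feeding, so the diets overlapped. None of the 18 passed limma's test (1 had an unadjusted p under 0.05), and all of them had a log2 difference below 0. The 7 fibroblast and stellate markers summed to 217 and 119 CPM on chow and to between 36.2 and 69.3 CPM after high-fat feeding, and 5 of them fell. Of the other markers tested, 2 of 7 endothelial ones fell, 1 of 8 duct markers rose and 2 fell, and 3 of 14 endocrine markers rose (Pcsk1, Mafa and Pdx1). The small RNA Rn7sk, which carries no poly(A) tail, was at 6.27 and 13.3 CPM on chow and at 3192 to 3935 CPM after high-fat feeding, so the kind of library and the diet cannot be told apart. In bulk samples, fewer cells of a type and less RNA per cell cannot be told apart either.

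Shown first are the 80 bases before the transcript start of 7 of the 8 genes whose level differed between the diets, because 5 of the 7 hold, within these bases, a match to 1 of the motifs described further on. They come from the RefSeq promoter table (build GRCm38.p6), which held 37 of the 45 genes, and the table's coordinates are given because the deposited table has none. Each stretch lies just upstream of the first exon and is written 5′ to 3′ on the gene's strand. Capitals mark TGACNNNGC, the core of the antioxidant response element read by the factors Nfe2l1 and Nfe2l2, and CCGGAA, a core bound by factors of the ETS family, each on either strand. Psma6 has a second start listed further upstream, which is not shown.
Psmb5, chr14:54617996-54618075, minus strand: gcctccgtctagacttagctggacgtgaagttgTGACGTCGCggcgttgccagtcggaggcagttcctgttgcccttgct
Psmb6, chr11:70525277-70525356, plus strand: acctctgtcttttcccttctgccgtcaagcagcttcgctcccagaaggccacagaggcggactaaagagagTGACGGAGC
Psmc4, chr7:28050093-28050172, minus strand: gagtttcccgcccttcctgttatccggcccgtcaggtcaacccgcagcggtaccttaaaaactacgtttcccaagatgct
Psmd11, chr11:80428535-80428614, plus strand: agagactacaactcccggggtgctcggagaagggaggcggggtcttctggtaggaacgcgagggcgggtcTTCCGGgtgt
Psma4, chr9:54950779-54950858, plus strand: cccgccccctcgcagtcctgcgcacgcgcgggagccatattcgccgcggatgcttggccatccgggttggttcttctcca
Psma6, chr12:55398745-55398824, plus strand: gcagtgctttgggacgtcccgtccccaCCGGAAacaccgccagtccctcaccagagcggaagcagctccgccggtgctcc
Psmd12, chr11:107479448-107479527, plus strand: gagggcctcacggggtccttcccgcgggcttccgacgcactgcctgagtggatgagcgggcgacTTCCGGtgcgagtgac

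The calls among the proteasome genes went in both directions and were modest in size. Psmb5, Psmb6, Psmc4 and Psmd11 rose on the high-fat diet, and Psma4, Psma6, Psmd7 and Psmd12 fell (limma on log2(CPM + 1), Benjamini-Hochberg adjusted p under 0.05 over all 16939 genes tested). The 45 genes thus gave 4 higher and 4 lower calls among the 43 that passed the filter on low genes (a mean of at least 0.5 CPM), or 18.6%, whereas 14.9% of all genes tested were called higher, 8.78% lower and 23.7% in either direction. The share of the proteasome genes called lay near but below that background, and a gene that was not called may still differ. At an unadjusted p under 0.05 there were 12 of the 43, beside 6576 of all 16939 genes tested, which is a larger share. The 43 genes had means of 2.97 to 81.1 CPM, and 39 to 3075 reads stood behind a value in a library.

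The median log2 difference (high-fat minus chow) of the 43 genes was 0.00, beside 0.05 over all genes tested. Their median difference regardless of sign was 0.17, against 0.26 over all genes. The largest difference among them, -0.56 in Psma4, was exceeded in size by 19.1% of all genes tested. The 35 genes that were not called had 95% intervals that together reached from -0.91 (Psma5) to 0.71 (Psmg4). In 29 of the 43 (67.4%) all high-fat libraries lay above, or all below, both chow libraries (13 above and 16 below), against 55.4% of all genes tested.

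**Figure D1:**
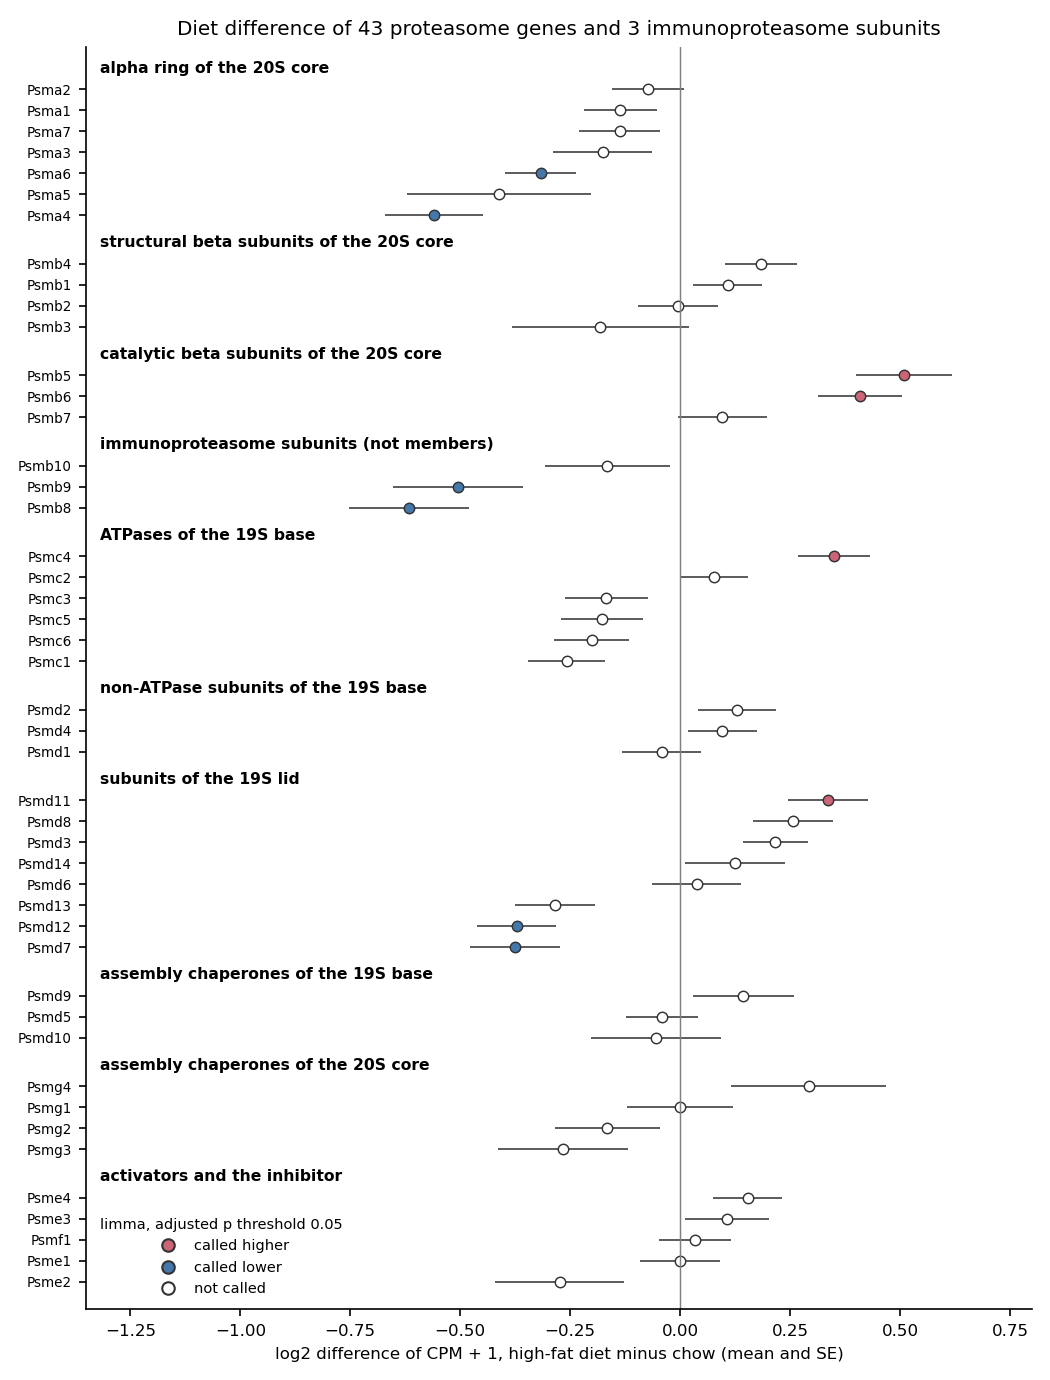
Log2 difference of CPM + 1 between the diets (x axis, high-fat minus chow, point and SE) for the 43 tested proteasome genes and, for comparison, the 3 immunoproteasome subunits, grouped by role. All 7 alpha subunits lie left of 0 and the 3 catalytic subunits right of it on the deposited scale, filled points mark the calls, and 2 of the 3 catalytic subunits lie below 0 when library sizes leave out the acinar and insulin genes, which moves the median of all genes to -0.34.

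Summed over the 45 genes, the level came to 1125 and 1171 CPM on chow, against 1164, 1169 and 1153 CPM after high-fat feeding. The mean differed by 1.19%, and the libraries of the diets overlapped. That sum depends on the scale. As a share of the summed gene CPM of each library it was 14.9% lower on the high-fat diet, but the diets overlapped. The shares were 0.134% and 0.174% on chow, and 0.121%, 0.140% and 0.131% after high-fat feeding. As a share of the summed gene CPM without the acinar and insulin genes it was 25.7% lower.

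The direction of the calls depended on the scale in the same way. Median-ratio scaling gave 4 higher and 6 lower calls, upper-quartile scaling 1 and 7, scaling to the summed gene CPM 0 and 3, and library sizes without the acinar and insulin genes 0 and 27. These last 2 scalings moved the median of all genes tested to -0.15 and -0.34. A scaling divides all genes of a library by the same factor, so differences relative to the median of all genes change little by construction. Such values describe a gene's place among all genes and do not test the calls. Relative to that median, Psmb5 stood at 0.46 on the deposited scale and at 0.43 on the last of these scales. Psma4 stood at -0.61 and -0.66. Psmb6, Psmc4 and Psmd11, whose log2 differences turned just below 0 on the last scale, stood there at 0.315, 0.26 and 0.238 above the median of all genes, against 0.356, 0.298 and 0.283 on the deposited scale. With the acinar score (the mean log2(CPM + 1) of the acinar markers) as a covariate only Psmb5 was called. In that fit the median log2 difference was 0.42 for the catalytic subunits (0.41 without the covariate). It was -0.20 for the alpha ring (-0.18 without it), with all 7 alpha subunits below 0. The score partly follows the diet, and the part of acinar content in these differences was not tested. Without a filter on low genes none of the 43 was called. The filter only selects genes, so the medians of 0.409 for the catalytic subunits and -0.176 for the alpha ring could not change. Without a trend in the variance prior Psma4 and Psmb5 were called.

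Among the catalytic subunits, Psmb5 and Psmb6 rose and Psmb7 did not pass the test. Psmb5, which carries the chymotrypsin-like activity that proteasome inhibitor drugs block, was at 13.7 and 12.1 CPM on chow (replicates 1 and 3, in this order throughout) and at 20.5, 18.3 and 17.7 CPM after high-fat feeding (replicates 1, 2 and 3). All 3 high-fat libraries lay above both chow libraries, and the mean was 45.5% higher (log2 difference 0.51 ± 0.11 SE, limma adjusted p = 0.0188). Psmb6, which carries the caspase-like activity, was at 23.5 and 27.0 CPM on chow and at 35.7, 32.6 and 33.1 CPM after high-fat feeding. Here too the diets did not overlap, and the mean was 33.8% higher (0.41 ± 0.10, adjusted p = 0.0247).

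Psmb7, which carries the trypsin-like activity, was at 23.8 and 20.5 CPM on chow and at 25.0, 23.7 and 22.3 CPM after high-fat feeding. Its libraries overlapped (log2 difference 0.10, 95% interval -0.14 to 0.34, adjusted p = 0.52), and whether it differed from Psmb5 and Psmb6 in its response was not tested. Psmb5 lost its call without chow replicate 3, high-fat replicate 1 or high-fat replicate 2 (adjusted p = 0.051, 0.0624 and 0.0599). Psmb6 lost it without chow replicate 1 or high-fat replicate 1, 2 or 3 (0.0919, 0.0813, 0.0674 and 0.0718).

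**Figure D2:**
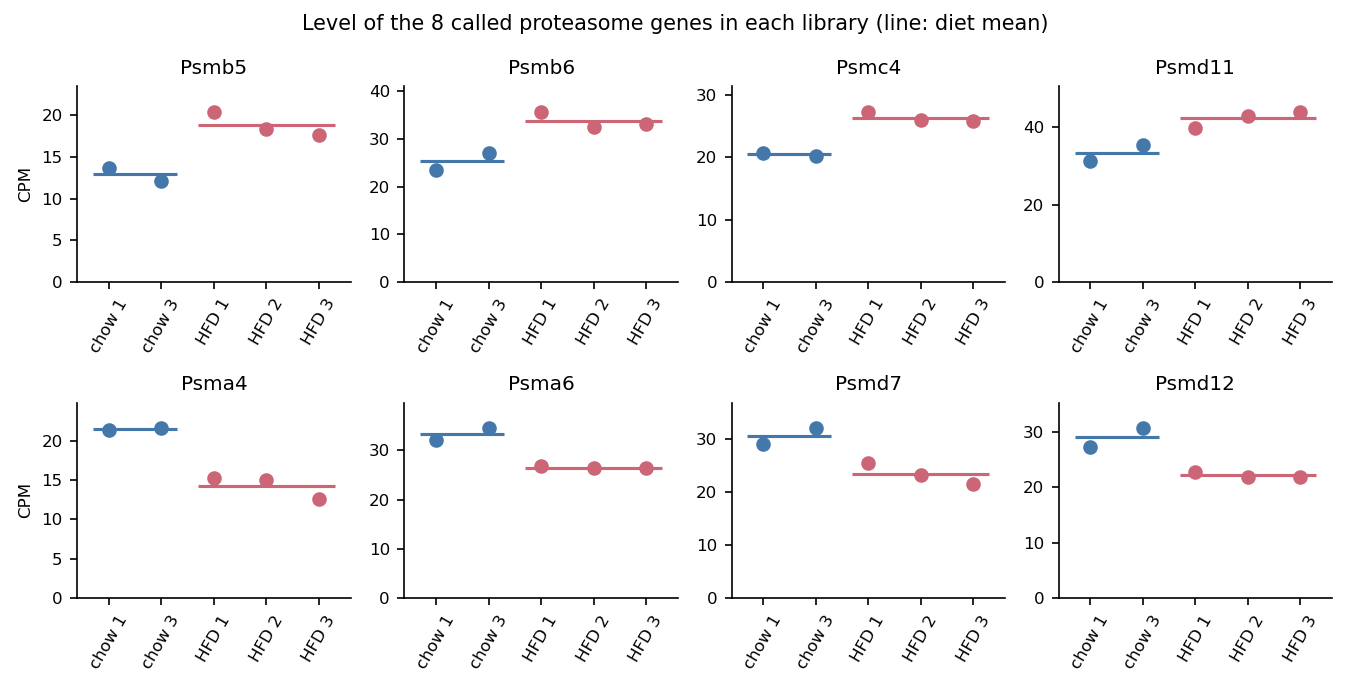
CPM (y axis, from 0) of the 8 called genes in each library (points) with the mean of each diet (lines). In each of the 8 panels the 2 chow libraries and the 3 high-fat libraries do not overlap. Psmb6, Psmc4 and Psmd11 fall just below 0 in log2 difference when library sizes leave out the acinar and insulin genes. That scaling moves the median of all genes to -0.34.

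Of the 3 immunoproteasome counterparts, 2 fell. Psmb8, which replaces Psmb5, was at 8.55 and 9.12 CPM on chow and at 5.30, 4.86 and 6.13 CPM after high-fat feeding. It fell without overlap (log2 difference -0.62 ± 0.14 SE, limma adjusted p = 0.0208). Psmb9, which replaces Psmb6, was at 8.16 and 7.20 CPM on chow and at 5.77, 4.43 and 5.19 CPM after high-fat feeding, and fell as well (-0.51 ± 0.15, adjusted p = 0.0474). Psmb10, which replaces Psmb7, was at 9.995 and 8.67 CPM on chow and at 9.07, 7.05 and 8.60 CPM after high-fat feeding, and did not pass the test (-0.17 ± 0.14, adjusted p = 0.43).

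A ratio of 2 genes in the same library does not depend on the scale, and the 3 pairs were formed after the values had been seen. Psmb5 stood at 1.61 and 1.33 times Psmb8 on chow and at 3.86, 3.77 and 2.89 times on the high-fat diet. Psmb6 stood at 2.88 and 3.76 times Psmb9 on chow and at 6.20, 7.35 and 6.38 times on the high-fat diet. In both pairs every high-fat library lay above every chow library, and the mean log2 ratio was higher by 1.25 (2.38-fold) and 1.01 (2.02-fold). Psmb7 stood at 2.38 and 2.36 times Psmb10 on chow and at 2.76, 3.37 and 2.60 times on the high-fat diet, a difference of 0.29 in the mean log2 ratio (1.22-fold) with high-fat replicate 2 standing apart from the rest, and of 0.18 without it.

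Each of the 3 pairs gave an exact two-sided permutation p of 0.2, also after adjustment over the 3, which is the smallest that 2 against 3 libraries allow. The 10 immune markers, which include those of cells rich in immunoproteasome, summed to 56.6 and 40.2 CPM on chow and to 36.8, 43.2 and 43.5 CPM after high-fat feeding. Of the 7 immune markers tested, Cd3e, a T cell receptor component, rose and Cd79a, a B cell receptor component, fell. Their part in the Psmb8 and Psmb9 values was not tested. Psmb8 was called in 1 of the 5 fits that left out a library, the one without high-fat replicate 3, and lost its call in the others (adjusted p from 0.0612 to 0.0687). Psmb9 lost its call in each of the 5 (adjusted p from 0.065 to 0.195).

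**Figure D3:**
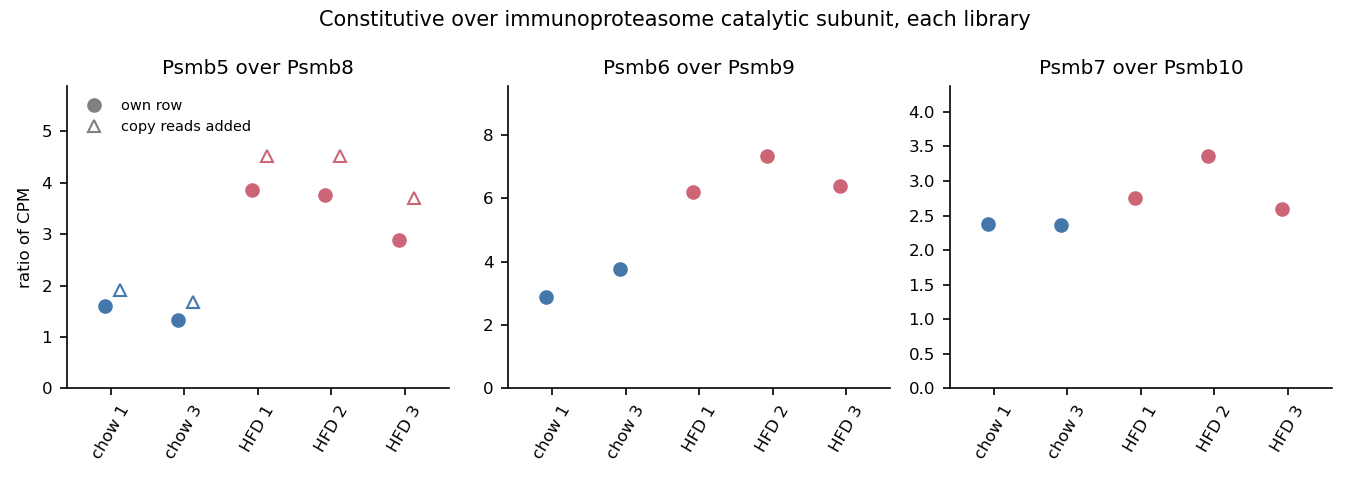
Ratio of the CPM of each constitutive catalytic subunit to that of its immunoproteasome counterpart (y axes, from 0, a scale of its own per panel) in each library, with the reads of the near-identical copy of Psmb5 added as triangles. For Psmb5 over Psmb8 and Psmb6 over Psmb9 the 3 high-fat libraries lie well above the 2 chow libraries, and for Psmb7 over Psmb10 they lie slightly above.

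In the alpha ring, Psma4 and Psma6 fell and the other 5 subunits did not pass the test. Psma4, whose N-terminal tail is part of the gate, was at 21.3 and 21.6 CPM on chow and at 15.24, 14.997 and 12.58 CPM after high-fat feeding. The high-fat libraries were all below chow, replicate 3 most of all, and the mean was lower (percent change -33.4, log2 difference -0.56 ± 0.11 SE, limma adjusted p = 0.0147). Psma6 was at 32.0 and 34.5 CPM on chow and at 26.8, 26.3 and 26.4 CPM after high-fat feeding. The high-fat libraries were nearly alike and below both chow libraries (-0.32 ± 0.08, adjusted p = 0.0315).

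Psma2, the alpha subunit with the largest p, was at 28.9 and 27.1 CPM on chow and at 26.4, 27.5 and 25.8 CPM after high-fat feeding, with overlap (-0.07 ± 0.08, adjusted p = 0.55). The remaining 4, Psma1, Psma3, Psma5 and Psma7, had log2 differences from -0.41 (Psma5) to -0.14 (Psma1). All 7 alpha subunits were thus below 0 in log2 difference on the deposited scale and under each of the other 5 scalings, and 5 of the 7 were when trends with transcript length and GC content were removed. Psma4 lost its call without chow replicate 1 (adjusted p = 0.0523). Psma6 kept it only without chow replicate 1 among the fits that left out a library (adjusted p = 0.0468, and 0.0752 to 0.1 in the others).

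Summed over the ring, the alpha subunits stood at 164 and 171 CPM on chow and at 145, 145 and 137 CPM after high-fat feeding, while the 3 catalytic subunits summed to 61.0 and 59.7 CPM on chow and to 81.2, 74.6 and 73.2 CPM after high-fat feeding. The ratio of these sums, which does not depend on the scale and was formed after the values had been seen, was 2.69 and 2.86 on chow and 1.79, 1.95 and 1.87 on the high-fat diet. The ratios of the diets did not overlap. With the reads of copies added it was 3.33 and 3.43 on chow and 2.26, 2.40 and 2.38 on the high-fat diet, again without overlap.

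Copies bear on these values, because several proteasome genes have processed pseudogenes with nearly the same sequence, and how shared reads were assigned is not given in the sources used here. Exons of Psmb7 overlap those of Nek6, and exons of Psmb8 and Psmb9 those of Gm20496 and Tap1, and whether the counting used strand is not given either. Counted as copies were rows that hold at least 20% of the 31-base words of a gene, which 7 of the 45 genes had. Gm6542, a copy of Psma4 with 37.8% of its words, was at 4.07 and 4.05 CPM on chow and at 6.28, 4.86 and 6.74 CPM after high-fat feeding, so copy (not called, adjusted p = 0.0853) and gene had differences of opposite sign. With both summed, Psma4 stood at 25.4 and 25.6 CPM on chow and at 21.5, 19.9 and 19.3 CPM after high-fat feeding. The call stayed at a smaller size (-0.32 ± 0.09, adjusted p = 0.0401).

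Gm3375, which holds 61.7% of the words of Psmb5, was at 2.62 and 3.24 CPM on chow and at 3.47, 3.67 and 5.02 CPM after high-fat feeding. Summed with it, Psmb5 gave a log2 difference of 0.50 ± 0.09 (adjusted p = 0.0103), and its ratio to Psmb8 a difference of 1.24. Psma5 is the least certain of the alpha subunits: its own row was at 5.77 and 8.11 CPM on chow and at 5.87, 5.31 and 3.75 CPM after high-fat feeding. Its copies Gm8394 and Gm12989 were both of that size, with means of 7.37 and 7.32 CPM on chow and 8.75 and 4.27 CPM after high-fat feeding. The 3 rows together gave -0.25 ± 0.09 (adjusted p = 0.0748).

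Psma3 stood at means of 14.2 CPM on chow and 12.4 CPM after high-fat feeding, below its copy Gm13835 at 27.7 and 27.4 CPM. The sum of both did not pass the test (-0.07 ± 0.09, adjusted p = 0.579). Psmd2, a scaffold of the 19S base, has the copy Gm5422 at 18.5 and 17.6 CPM and passed the test neither alone nor summed with it (adjusted p = 0.507).

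**Figure D4:**
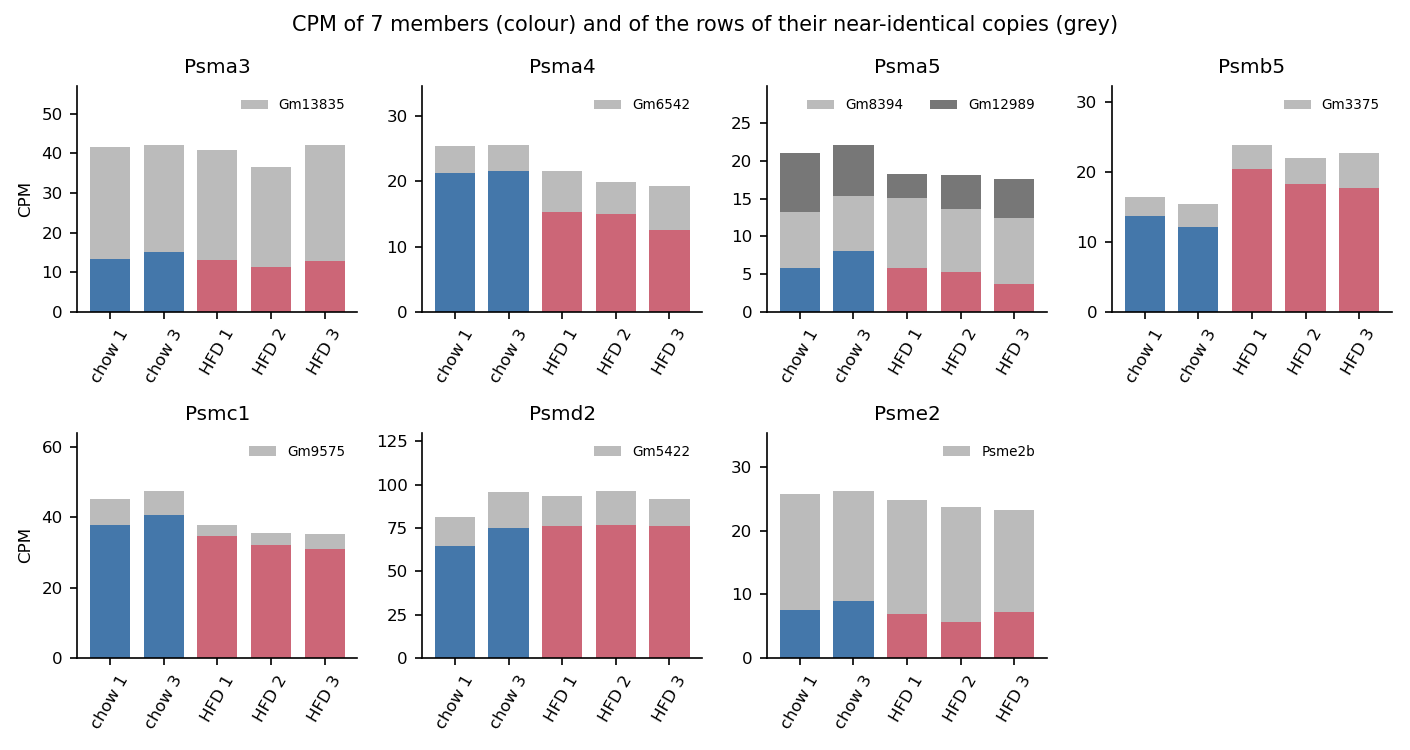
CPM (y axes, from 0) of the 7 genes with copies in each library, own row in colour and rows of the copies in grey, stacked. For Psma3, Psma5 and Psme2 the copies hold more CPM than the gene itself, and the falling Psma4 and rising Psmb5 hold most of the stacks they are in.

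The structural beta subunits gave no call (0 of 4 by limma, and 0 at an unadjusted p under 0.05). Psmb2, which had the largest p, was at 20.5 and 22.8 CPM on chow and at 20.9, 22.0 and 21.8 CPM after high-fat feeding. Its libraries overlapped, and its log2 difference was 0.00 with a 95% interval from -0.22 to 0.21. The other 3 ran from -0.18 (Psmb3) to 0.18 (Psmb4). Psma8, the core subunit of the testis, and Psmb11, that of the thymus cortex, were at most at 0.20 and 0.24 CPM in any library (at most 7 and 6 reads) and were not tested.

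Among the ATPases of the 19S base, which pull the protein into the core, Psmc4 alone passed the test. It was at 20.7 and 20.2 CPM on chow and at 27.3, 25.9 and 25.9 CPM after high-fat feeding. The libraries of each diet were nearly alike and the diets did not overlap (28.9% higher, log2 difference 0.35 ± 0.08 SE, limma adjusted p = 0.0247). Psmc2, with the largest p of the 6, was at 37.7 and 39.1 CPM on chow and at 39.8, 40.5 and 41.5 CPM after high-fat feeding (0.08 ± 0.08, adjusted p = 0.481).

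The other 4 ATPases, Psmc1, Psmc3, Psmc5 and Psmc6, had log2 differences between -0.26 and -0.17 and did not pass the test, though in each the high-fat libraries lay below both chow libraries. Psmc1, picked out after its values were seen, was at 37.9 and 40.6 CPM on chow and at 34.6, 32.3 and 31.1 CPM after high-fat feeding (adjusted p = 0.0711). Its copy Gm9575 fell from a mean of 7.10 to 3.53 CPM (adjusted p = 0.0121), and the sum of both fell too (-0.35 ± 0.08, adjusted p = 0.0227). The 6 ATPases assemble into 1 ring, and on the deposited scale 2 stood above 0 and 4 below it. Psmc4 was called without chow replicate 3 (adjusted p = 0.0485) and lost its call without any 1 of the other 4 libraries (0.0593 to 0.0841).

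The other base subunits, Psmd1 and Psmd2, which form its scaffold, and Psmd4, a receptor for ubiquitin chains, gave no call (0 of 3 by limma and 0 at an unadjusted p under 0.05). Psmd1, with the largest p, was at 58.7 and 65.8 CPM on chow and at 59.0, 64.0 and 58.2 CPM after high-fat feeding. Its libraries overlapped throughout (-0.04 ± 0.09, adjusted p = 0.758). Psmd2 and Psmd4 had log2 differences of 0.13 and 0.10.

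In the lid, Psmd11 rose and Psmd7 and Psmd12 fell. Psmd11, which clamps the lid to the core, was at 31.4 and 35.4 CPM on chow and at 39.9, 42.9 and 44.1 CPM after high-fat feeding. The high-fat libraries all lay higher (26.8%, log2 difference 0.34 ± 0.09 SE, limma adjusted p = 0.0383). Psmd12, a scaffold subunit, was at 27.4 and 30.7 CPM on chow and at 22.8, 21.8 and 22.0 CPM after high-fat feeding. It was lower in all 3 high-fat libraries (percent change -23.6, -0.37 ± 0.09, adjusted p = 0.0265).

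Psmd7, the partner of the deubiquitinase Psmd14, was at 29.0 and 32.0 CPM on chow and at 25.4, 23.1 and 21.4 CPM after high-fat feeding. The diets did not overlap (-0.38 ± 0.10, adjusted p = 0.0383). Psmd14 itself was not called, at means of 14.6 CPM on chow and 15.9 CPM after high-fat feeding (0.12 ± 0.11, adjusted p = 0.455). Psmd6, with the largest p, was at 39.5 and 33.3 CPM on chow and at 38.1, 35.0 and 38.8 CPM after high-fat feeding, with overlap (0.04 ± 0.10, adjusted p = 0.811). The other 3 lid subunits were Psmd13 at -0.29, Psmd3 at 0.22 and Psmd8 at 0.26 (adjusted p = 0.0607, 0.0737 and 0.0824), and exons of Psmd13 overlap those of Sirt3.

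Psmd11 was called without chow replicate 3 (adjusted p = 0.0253) and lost its call without any 1 of the other 4 libraries (0.0689 to 0.139). Psmd12 was called without chow replicate 1 (0.0321) and lost its call without any 1 of the other 4 (0.0678 to 0.0891), and Psmd7 lost its call without each of the 5 (0.0538 to 0.115).

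None of the 7 assembly chaperones was called by limma, and 0 had an unadjusted p under 0.05. Psmd10, a base chaperone also known as gankyrin, was at 6.02 and 6.32 CPM on chow and at 5.74, 5.19 and 6.89 CPM after high-fat feeding. Psmg1, which pairs with Psmg2 to start the alpha ring, was at 6.59 and 6.19 CPM on chow and at 6.33, 6.64 and 6.21 CPM after high-fat feeding. Both overlapped between the diets, with log2 differences of -0.05 (95% interval -0.40 to 0.30) and 0.00 (-0.28 to 0.28). The other 5 ran from -0.27 (Psmg3) to 0.29 (Psmg4), the latter at 2.07 to 3.65 CPM and from 39 reads upward.

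The activators and the inhibitor gave no call either (0 of 5 by limma, and 0 at an unadjusted p under 0.05). Psme1, which forms the interferon-induced cap together with Psme2, was at 19.8 and 20.4 CPM on chow and at 19.2, 19.8 and 21.4 CPM after high-fat feeding. The libraries overlapped, and the log2 difference was 0.00 (95% interval -0.21 to 0.21). Psme2 was at 7.56 and 8.95 CPM on chow and at 6.99, 5.74 and 7.28 CPM after high-fat feeding, all 3 below chow (-0.27 ± 0.15, adjusted p = 0.215). Its near-identical partner Psme2b, which holds 66.2% of its words, was higher than Psme2 itself, at means of 17.7 and 17.2 CPM, and the sum of both gave -0.12 ± 0.08 (adjusted p = 0.34).

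Psme3, the nuclear activator, was at 37.1 and 39.1 CPM on chow and at 38.6, 39.7 and 45.3 CPM after high-fat feeding, where only replicate 3 stood clear of chow. Psme4, a large activator known from the testis and from histone turnover, was at 76.5 and 75.4 CPM on chow and at 80.7, 87.7 and 85.3 CPM after high-fat feeding, all 3 above chow. Their log2 differences were 0.11 ± 0.10 (adjusted p = 0.45) and 0.15 ± 0.08 (adjusted p = 0.197). Psmf1, which inhibits the core in the test tube, was at 31.04 and 29.85 CPM on chow and at 32.5, 31.4 and 29.8 CPM after high-fat feeding, with overlap (0.03 ± 0.08, adjusted p = 0.787).

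The core holds each of its subunits in equal number, but the levels of their transcripts were not equal. Per kilobase of annotated exon (GENCODE M21), the mean level of the 14 core genes on chow ran from 3.63 CPM per kilobase (Psma3) to 27.0 (Psma6), a 7.42-fold range, and on the high-fat diet from 3.19 (Psma3) to 23.3 (Psmb4), a 7.31-fold range. With the length of the longest transcript in its place, the range on chow was 6.78-fold and that on the high-fat diet 9.57-fold. The low end, Psma3, is one of the genes whose copy holds more CPM than the gene. By this length Psma6, Psmb4 and Psmb2 were at the top on chow, at 27.0 ± 1.4, 20.5 ± 1.2 and 18.0 ± 1.4 CPM per kilobase (SD, n = 2), and the libraries of Psma6 lay above those of Psmb4, which lay above those of Psmb2. The order depends on the length used: with the longest transcript Psmb4 led on chow at 33.73, with libraries overlapping those of Psma6 at 31.94, and Psma1 (26.55) and Psmb6 (26.15) had higher means than Psmb2 (25.21), also with overlap. On the high-fat diet the libraries of Psmb5, at 20.9 ± 1.6 CPM per kilobase of exon (SD, n = 3), overlapped those of Psma6, at 21.5 ± 0.21.

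The 17 genes of the 19S particle were more alike per length. Their means ran on chow from 5.18 CPM per kilobase (Psmd14) to 20.3 (Psmc1), a 3.92-fold range, and on the high-fat diet from 5.66 (Psmd14) to 18.9 (Psmd2), a 3.34-fold range. With the longest transcript both ranges were smaller, 2.76-fold and 2.74-fold.

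**Figure D5:**
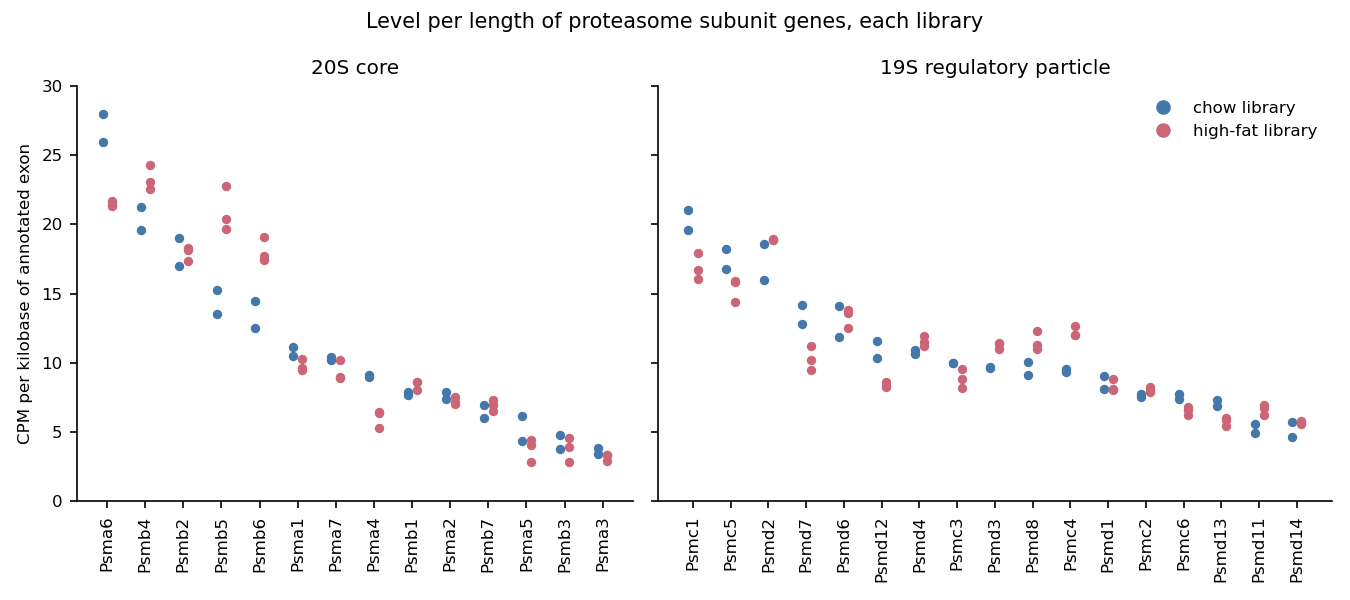
CPM per kilobase of annotated exon (y axis, from 0) of the 14 core genes and the 17 genes of the 19S particle in each library, ordered by the chow mean, chow in blue and high-fat in red. The core genes span 7.42-fold on chow and the 19S genes 3.92-fold, and Psmb5 and Psmb6 move up among the core genes on the high-fat diet.

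The proteasome genes differed little between libraries of the same diet. Over the 43 tested genes, the median absolute log2 difference was 0.10 between the 2 chow libraries and 0.08 to 0.09 between pairs of high-fat libraries, against 0.18 and 0.13 to 0.14 over all genes tested. Between a chow and a high-fat library it was 0.11 to 0.21, against 0.25 to 0.33 over all genes. The smallest of these between-diet values, between chow replicate 1 and high-fat replicate 1, was close to that between the chow libraries. Across the 43 genes the log2 difference had a Spearman rho of 0.15 with transcript length, 0.21 with GC content, -0.20 with the share of 31-base words in other genes and 0.35 with the mean level, given as a description, since genes of a library share its depth and composition.

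Of 3 motifs searched in the promoters, CCGGAA lay in 52.5% of the 40 promoter windows of these genes (300 bases, 250 of them before the start), in 20 of 37 genes, beside 14.9% of all 32851 windows in the table and 24.4% of the windows of genes tested. TGACNNNGC lay in 15% of the windows of these genes, beside 12.4% of all and 14.3% of those of genes tested, and CCAAT, bound by the factor NF-Y, in 32.5%, 37.4% and 37.0%. Matches were searched on both strands, and each motif was counted on its own whether or not it overlapped another.

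Psmb5 and Psmb6, both higher on the high-fat diet, hold TGACNNNGC at 47 and 9 bases before the start, as shown above. Psmd12, which fell, holds it at 247 bases before the start, and Psmc6, Psmd9 and Psme4, which were not called, hold it as well. CCGGAA lay in genes called in either direction, Psmd11 among the higher and Psma6 and Psmd12 among the lower. A match is a run of letters, and binding was not measured.

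Of the 12 tested genes for proteasome parts and partners with other names, 1 rose and 3 fell (33.3% called, beside 23.7% of all genes tested). Adrm1, a ubiquitin receptor of the 19S base, was at 6.40 and 7.75 CPM on chow and at 15.3, 14.4 and 16.8 CPM after high-fat feeding. All high-fat libraries lay far above chow (log2 difference 1.04 ± 0.13 SE, limma adjusted p = 0.00245), and the call was kept in each alternative fit. Gm9774, a copy that holds 21.5% of its words, was at 18.2 to 27.1 CPM and was not called (0.27 ± 0.12, adjusted p = 0.146). The sum of both rows was 24.6 and 29.9 CPM on chow and 39.0, 41.5 and 39.6 CPM after high-fat feeding, so the call stayed at a smaller log2 difference (0.54 ± 0.10, limma adjusted p = 0.012).

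Uchl5, the deubiquitinase that Adrm1 anchors to the proteasome, went the opposite way, from 10.95 and 8.02 CPM on chow to 4.98, 4.94 and 4.08 CPM after high-fat feeding (-0.88 ± 0.17, adjusted p = 0.0127). Usp14, the other deubiquitinase that docks on the base, fell from 25.6 and 29.6 CPM to 18.98, 20.6 and 17.9 CPM (-0.50 ± 0.11, adjusted p = 0.0173). In both, the diets did not overlap. Exons of Usp14 overlap those of Thoc1 on the opposite strand, which hold 45.5% of its words; Thoc1 fell as well (-0.47 ± 0.13, limma adjusted p = 0.0392), and reads of the shared bases cannot be told apart where strand was not used. Zfand5, which stimulates the proteasome in muscle, fell too (-0.39 ± 0.08, adjusted p = 0.0184). Pomp, the maturation factor of the core, was not called (0.24 ± 0.09, adjusted p = 0.103). Uchl5 lost its call without chow replicate 1 (adjusted p = 0.0637), and Usp14 without high-fat replicate 1 or 3 (0.0562 and 0.062). Zfand5, named after its values were seen, lost its call without the same libraries (0.0657 and 0.0648).

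Upstream of the proteasome, Uba1, the main enzyme that charges ubiquitin, was at 139 and 152 CPM on chow and at 188, 189 and 193 CPM after high-fat feeding (0.38 ± 0.09, limma adjusted p = 0.0239). Uba6, the other activating enzyme, fell (-0.37 ± 0.09, adjusted p = 0.0304). Each of them was called in only 1 of the 5 fits that left out a library. Uba1 kept its call without chow replicate 3 (adjusted p elsewhere 0.0661 to 0.0858), Uba6 without chow replicate 1 (0.0529 to 0.0993), and Uba1 stood at -0.06 without the acinar and insulin genes in the library size.

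Of 14 shuttle factors and parts of the p97 segregase, 2 rose (14.3%, beside 14.9% of all genes tested). Vcp, the p97 ATPase that pulls ubiquitylated proteins from membranes, was at 88.3 and 88.0 CPM on chow and at 132, 132 and 136 CPM after high-fat feeding. The libraries within each diet were nearly alike (0.59 ± 0.08, limma adjusted p = 0.00317), and its call was kept without any 1 library. Vcp-rs, a processed pseudogene that holds 64.7% of its words, was at 107 and 118 CPM on chow and at 132, 139 and 129 CPM after high-fat feeding, and was not called (0.25 ± 0.09, adjusted p = 0.0863). The sum of both rows kept the call at a smaller log2 difference (0.41 ± 0.09, limma adjusted p = 0.0213). The cofactor Nploc4 rose (0.36 ± 0.10, adjusted p = 0.0419), a call kept only without chow replicate 3 among the fits that left out a library (0.0361, and up to 0.154), and stood at -0.08 without the acinar and insulin genes in the library size.

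Of 17 genes of ER-associated degradation, which sends misfolded secretory proteins to the proteasome, 4 rose and none fell, namely Syvn1, Edem3, Ube2g2 and Vimp. The 23.5% called is near the background of all genes tested (23.7% in either direction, 14.9% higher). Vimp, an anchor for Vcp at the ER membrane, was at 40.4 and 39.5 CPM on chow and at 60.0, 55.7 and 60.2 CPM after high-fat feeding (0.54 ± 0.08, limma adjusted p = 0.00493). Edem3, which trims sugars of misfolded glycoproteins, and Syvn1, the main ubiquitin ligase of the pathway, rose by 0.53 ± 0.09 and 0.55 ± 0.10 on the log2 scale (adjusted p = 0.00728 and 0.0126). Vimp and Edem3 kept their calls without any 1 library, and Syvn1 lost its call without chow replicate 1 (0.0511). Ube2g2, a ubiquitin-conjugating enzyme named after its values were seen, rose by 0.48 on the log2 scale (limma adjusted p = 0.0233) and lost its call without chow replicate 1 or high-fat replicate 1 or 3 (0.0908, 0.0734 and 0.0804). Under scaling to the summed gene CPM, the adjusted p was 0.386 for Vimp, 0.449 for Edem3, 0.38 for Syvn1 and 0.341 for Vcp, all still above 0 in log2 difference.

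Of 8 transcription factors of proteasome genes and their processing factors, only Nfe2l3 was called. It was at 1.08 and 0.53 CPM on chow and at 19.3, 26.3 and 24.0 CPM after high-fat feeding (3.75 ± 0.19, limma adjusted p = 3.7e-05). Nfe2l1, which drives proteasome genes when proteasome activity falls short, was at 222 and 235 CPM on chow and at 253, 241 and 275 CPM after high-fat feeding, all 3 above chow but not called (0.16 ± 0.10, adjusted p = 0.286). Nfe2l2, the related factor of the antioxidant response, was not called (-0.30 ± 0.12, adjusted p = 0.11).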

How the data were processed

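RNA of isolated islets was sequenced, and the authors deposited 1 table with 1 column per sample; the submitters' processing notes name Partek as the software. The sources used here do not give the aligner, the genome build, the annotation, the strand or the treatment of reads that several genes share. The deposited values were read as CPM plus 1, because every column has a lowest value of 1 and low values of the 5 libraries fall on multiples of 1 step, and 1 was subtracted. The step of each library gave implied totals of 18.8 to 35.0 M reads, so that 3 reads correspond to 0.0856 to 0.16 CPM (counting error only). Between 64.5% and 70.0% of values up to 20 reads were whole within 0.1, so reads were not recovered and no count model was used. The column of chow replicate 2 equals the mean of the other 2 chow columns and was left out.

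The diets were compared in 5 libraries by limma (version 3.58.1, R 4.3.3), fitted to log2(CPM + 1) of the 16939 genes whose mean reached 0.5 CPM, letting the variance prior follow the mean level. P-values over all these genes were adjusted by Benjamini-Hochberg, with a threshold of 0.05. Folds on this scale understate changes of low genes. The fit was tested on simulated data. The members and lists were chosen with earlier results of these data known. Values in every library are given for the catalytic and immunoproteasome subunits, the activators and the inhibitor, for up to 4 called genes and the gene with the largest p in each other role, and for up to 3 called genes of each further list; other named genes were chosen after their values were seen. GENCODE M21, in which 46369 names were found, supplied lengths, GC content, overlaps and the 31-base words that genes share. Alternatives were other scalings, filters and pseudocounts, no trend, the acinar score, all 6 columns and leaving out each library. Removal of length and GC trends, scaling to the median of the proteasome genes and the ratios were added after the data were seen. The fits with the reads of copies (of proteasome genes, Adrm1 and Vcp), or of Thoc1 for Usp14, were added then too.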

Additional observations from a re-analysis of the deposited data

How the results depend on the processing

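The count of called proteasome genes (4 higher and 4 lower) was the same with a filter at 1 CPM, with pseudocounts of 0.5 and 2 and with length and GC trends removed, where Psma6 was lost and Psmd13 gained. It was 1 higher and 7 lower with upper-quartile scaling, 0 higher with the summed gene CPM, 0 higher and 27 lower without the acinar and insulin genes in the library size, 0 and 0 without a filter, 1 and 1 without a trend, 1 and 0 with the acinar score, and 8 and 7 with all 6 columns, where the averaged column counts as a library. Leaving out 1 library gave 0 to 3 higher and 1 to 2 lower calls, fewer in all with any library left out. The median log2 difference was -0.069, -0.12, -0.24 and -0.44 under median-ratio, upper-quartile, summed-CPM and acinar-and-insulin-free scaling. Under the last, every tested proteasome gene outside the catalytic subunits stood below 0, and 2 of the 3 catalytic subunits did. Those that turned below 0 included Psmb6 (-0.021), Psmb7 (-0.33), Psmc4 (-0.077), Psmc2 (-0.36), Psmd11 (-0.10), Psmd6 (-0.40), Psme1 (-0.43) and Psmf1 (-0.40). Outside the set, Uba1 (-0.061) and Nploc4 (-0.082) turned too. That scaling moved the median of all genes to -0.34. Relative to it Psmb6, Psmc4 and Psmd11 stood at 0.315, 0.26 and 0.238, values that a scaling leaves nearly unchanged by construction. The summed CPM differed by -14.9 percent as a share of the summed gene CPM, where the diets overlapped. It differed by -25.7 percent as a share of that total without the acinar and insulin genes. With 1 library left out, the summed CPM differed by -0.78 to 3.23 percent. The log2 ratio of Psmb7 to Psmb10 ranged from 0.18 to 0.36 with 1 library left out. No paired analysis was possible because the labels carry no replicate numbers.

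With 2 chow libraries an exact permutation test over 5 libraries has a smallest p of 0.2, and the calls rest on the spread that limma shares across genes. The kind of library and the diet cannot be told apart, and directions are relative to the rest of each library. Acinar shares of the diets overlapped. With the acinar score in the fit only Psmb5 was called, at medians of 0.42 for the catalytic subunits and -0.20 for the alpha ring. The part of acinar content in the differences was not tested. How reads were divided between genes and their copies is not known. Of the 8 called genes only Psma4 and Psmb5 had rows of copies, and adding these kept both calls. The values of the other called genes were not changed by this step. With their copies added, Adrm1 and Vcp kept their calls at log2 differences of 0.54 and 0.41. Thoc1, which was added to Usp14 (-0.50), is a separate gene that fell itself. That sum therefore cannot show whether the Usp14 call depends on shared reads. Genes under 10 CPM, such as the assembly chaperones of the core, had the widest intervals. Protein and proteasome activity were not measured.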
